A study of Homo sapiens with 12 samples.

Results

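p53 is a transcription factor that DNA damage and other stress stabilise, and MDM2 is the ubiquitin ligase that binds it and sends it to the proteasome. RG7112 is a small molecule of the nutlin class that occupies the p53 pocket of MDM2, so that p53 is freed in cells that carry the wild-type protein. Genes that p53 activates include the cell cycle inhibitor CDKN1A (p21) and MDM2 itself, and p21 in turn shuts down E2F and DREAM target genes through the retinoblastoma family.

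The data described here are the transcriptional response of A549 cells to RG7112 across all expressed genes. A549 is an established human lung adenocarcinoma line that the study lists as MDM2 amplified and p53 WT, and H1792 is the MDM2 amplified, p53 mutant line sequenced beside it. The comparison takes 6 of the 12 RNA-seq libraries of the study, 3 of A549 cells kept in DMSO and 3 of A549 cells kept in RG7112 at 1 μM, both for 48 h and in the same medium. The sample labels and the study's methods give 1 μM, whereas the column names of the deposited table carry 0.1 μM. The labels number the replicates 1 to 3 but do not say whether they were separate cultures, so the p-values measure the spread between these libraries, which may be technical. A response of a single line is a response of that line and its genotype only.

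The values are estimated counts per gene, shown as CPM, the counts relative to the library's size after TMM scaling. The A549 libraries held between 2011916 and 6218825 counts, and 3 counts, taken as the floor for a gene that is not detected, were worth 0.475 to 1.46 CPM. Replicate 3 of both treatments stood apart on the second principal component (25.6% of the variance), while the first (41.1%) separated DMSO from RG7112. The epithelial keratin KRT8 lay between 10802 and 16196 CPM in the 6 libraries, the leukocyte marker PTPRC reached at most 1 count, and the endothelial marker PECAM1 was at 0. Of the other identity markers, EPCAM reached at most 9 counts, CDH1 reached at most 22.5 CPM, and NTS and CDKN2A were at 0. Of 13 fibroblast and smooth muscle markers, FAP and DES were at 0 and the summed level was 149 to 166 CPM with DMSO and 413 to 576 CPM with RG7112, of which ACTA2 made up 334 to 436 CPM with RG7112. TAGLN, also in that list, was at 51.7 to 77.1 CPM with DMSO and 67.9 to 135 CPM with RG7112. The summed level of 11 endothelial markers was 121 to 185 CPM with DMSO and 139 to 215 CPM with RG7112. EGFL7 made up 119 to 178 CPM and 136 to 212 CPM of it. The summed level of 13 leukocyte markers was 36.4 to 60.9 CPM and 59.5 to 126 CPM. Their part in the results was not tested. In bulk RNA, a change in the share of cells that express a gene and a change in RNA per cell cannot be told apart.

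Of 10739 genes tested, 342 rose and 323 fell with RG7112, that is 3.18% and 3.01% of the genes tested and 6.19% in all. A DEG (differentially expressed gene) had an adjusted p under 0.05 in edgeR's quasi-likelihood test with Benjamini-Hochberg adjustment, which gives every adjusted p below, and an absolute log2 fold change over 1. In all 665 DEGs the 3 RG7112 libraries lay wholly above or wholly below the 3 DMSO libraries. Groups also did not overlap in 16.2% of all genes tested upwards and in 16.2% downwards. The falls were larger than the rises: the median absolute log2 fold change was 1.89 among falling and 1.52 among rising DEGs, and 91 falling against 36 rising DEGs passed 3 on the log2 scale. The median of all genes tested was -0.01, and 8.38% of the genes had an adjusted p under 0.05 at any fold. The counts depended on single libraries. Without DMSO replicate 1 there were 318 DEGs, without DMSO replicate 2 there were 310, without RG7112 replicate 1 there were 407, and without RG7112 replicate 2 there were 398. In each of the 6 fits that left out 1 library, 115 of the rising and 138 of the falling DEGs passed; these are called held below. Without replicate 3 of both treatments there were 654 DEGs, 485 of them among the 665.

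**Figure D1:**
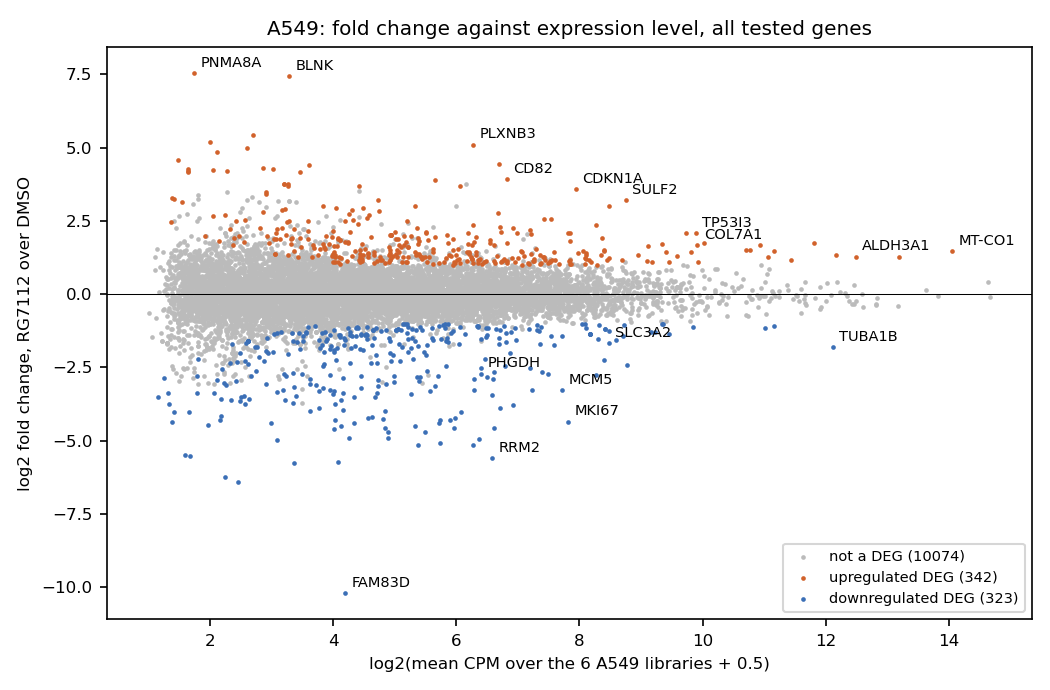
Log2 fold change (RG7112 over DMSO) against log2 of the mean CPM plus 0.5 for the 10739 genes tested in A549, with 342 upregulated DEGs in orange, 323 downregulated DEGs in blue and other genes in grey. The rises reach up to highly expressed genes such as MT-CO1. The deepest fall, FAM83D, lies at low to moderate expression, as does RRM2.

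The p53 targets that served as markers rose. TP53I3, an oxidoreductase gene with a p53-responsive repeat in its promoter, was at 319, 362 and 401 CPM with DMSO and 1540.4, 1522 and 1547 CPM with RG7112 (log2 fold change 2.09 ± 0.13 SE, adjusted p = 0.000348). Its libraries were tight within each group and far apart between groups. CDKN1A was at 45.9, 43.5 and 24.7 CPM with DMSO and 207, 194 and 962 CPM with RG7112 (log2 fold change 3.58 ± 0.70 SE, adjusted p = 0.0252). RG7112 replicate 3 was more than 4 times as high as the other two in this gene, and without replicate 3 of both treatments the log2 fold change was 2.18 (adjusted p = 0.00171). The CDKN1A call was lost without any 1 of the DMSO libraries (adjusted p = 0.096 without DMSO replicate 2). MDM2 was at 3.19, 9.78 and 13.2 CPM with DMSO and 74.4, 60.04 and 77.7 CPM with RG7112 (log2 fold change 2.99 ± 0.45 SE, adjusted p = 0.0102), and its call was lost without DMSO replicate 2 (adjusted p = 0.0534). Of 39 tested genes in a list of p53 targets, 8 rose (20.5%, against 3.18% of all genes) and none fell, 35 had a fold change above 0, and the list's median log2 fold change was 0.81. Besides these 3, the pro-apoptotic BH3 gene BBC3 (PUMA, 1.76), the mitochondrial ferredoxin reductase FDXR (2.07), the death receptor FAS (1.83), the stress protein SESN1 (1.54) and SPATA18 (1.59) made up the 8, and BBC3 and FDXR held together with TP53I3. BBC3, FDXR, SESN1, SPATA18 and other list members outside the naming rule are named after their values were seen. The number of p53 targets called was 3 without DMSO replicate 2, 5 without DMSO replicate 1 and 8 without replicate 3 of DMSO.

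The 12 rising genes with the smallest p were SULF2, CD82, SLC52A1, FAT1, TP53I3, CRYAB, COL7A1, PLXNB3, LYNX1, ZNF385A, ACTA2 and RGMA. SULF2, an extracellular enzyme that removes 6-O-sulfate from heparan sulfate chains, was at 95.1, 89.6 and 67.7 CPM with DMSO and 807, 779 and 755 CPM with RG7112 (log2 fold change 3.21 ± 0.17 SE, adjusted p = 0.000283). The RG7112 libraries differed by less than 60 CPM and lay far above the DMSO libraries. FAT1, a giant protocadherin, was at 89.02, 96.9 and 116 CPM with DMSO and 541, 511 and 494 CPM with RG7112 (log2 fold change 2.36 ± 0.14 SE, adjusted p = 0.000326). CRYAB, a small heat shock chaperone, was at 5.74, 5.24 and 7.63 CPM with DMSO and 93.4, 76.6 and 108 CPM with RG7112 (log2 fold change 3.90 ± 0.25 SE, adjusted p = 0.00039). As in all 665 DEGs, no library of FAT1 or CRYAB crossed to the other group, and the naming rule required this. Among all genes tested the groups did not overlap upwards in 16.2%. ZNF385A, a zinc finger protein that binds p53, was at 55.8, 52.6 and 52.9 CPM with DMSO and 268, 276 and 400.5 CPM with RG7112 (log2 fold change 2.55 ± 0.19 SE, adjusted p = 0.000779), with replicate 3 the highest of the RG7112 libraries. ACTA2, the smooth muscle actin, was at 92.2, 94.1 and 79.1 CPM with DMSO and 348, 334 and 436 CPM with RG7112 (log2 fold change 2.07 ± 0.16 SE, adjusted p = 0.000786). LYNX1, a GPI-anchored modulator of nicotinic receptors, was at 39.9, 37.4 and 40.7 CPM with DMSO and 155, 164 and 194 CPM with RG7112 (log2 fold change 2.12 ± 0.15 SE, adjusted p = 0.0007). RGMA, a repulsive guidance molecule and BMP co-receptor, was at 0.957, 0.873 and 1.27 CPM with DMSO and 19.2, 20.99 and 26.3 CPM with RG7112 (log2 fold change 4.39 ± 0.34 SE, adjusted p = 0.000864), where the DMSO levels were 3 to 5 counts per library. All 7 held. LYNX1 shares exons with a readthrough gene. The span of ACTA2 overlaps FAS on the opposite strand, and those of TP53I3, SULF2, CRYAB and MDM2 each overlap another gene on the opposite strand. Where such a pair shares transcript sequence and strand was not used, its reads there cannot be told apart. Of the 665 DEGs, 170 overlap a gene on the opposite strand. These overlaps were taken over whole gene spans, introns included, so they do not show that transcript sequence is shared.

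**Figure D2:**
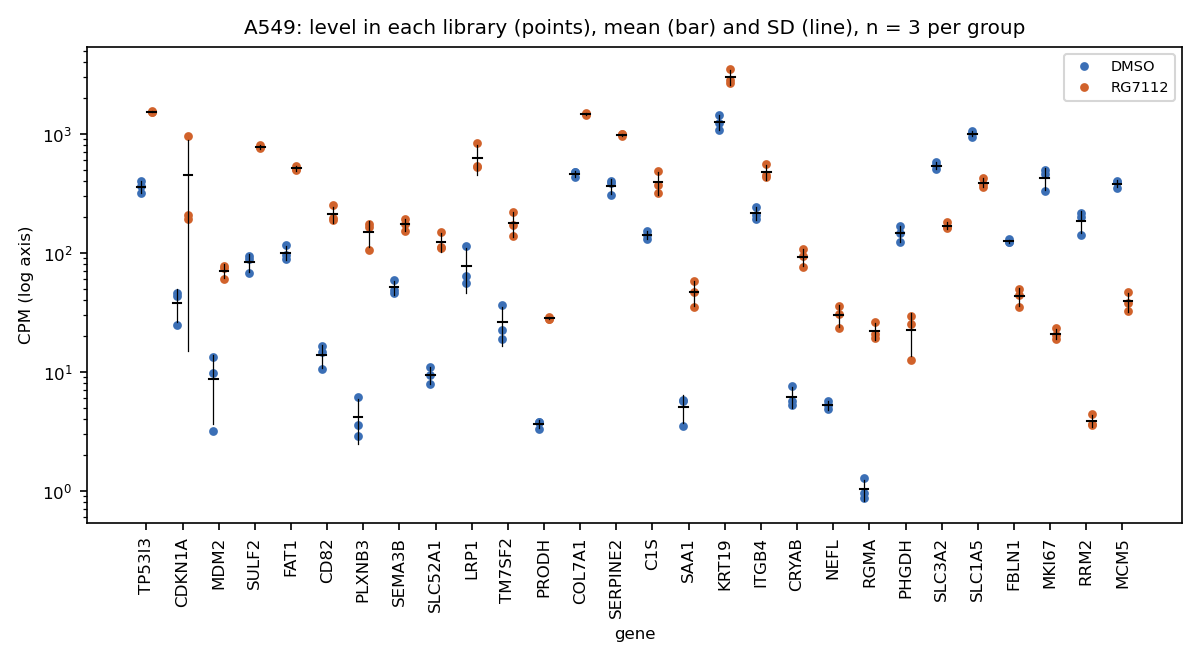
CPM on a log axis of 28 named genes in each of the 6 A549 libraries (DMSO blue, RG7112 orange), with the mean (bar) and SD (line, n = 3). All 28 are DEGs, and the groups overlapped in no DEG. CDKN1A shows 1 RG7112 library far above the others.

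The cell surface lists, which also hold secreted ligands such as SEMA3B, held more rising than falling genes. Over all of them together, 332 genes were tested, of which 23 (6.93%, against 3.18% of all genes) rose and 5 (1.51%) fell, with a median log2 fold change of 0.32. The semaphorins, plexins and axon guidance receptors, ligand and receptor families that steer cell movement, had 36 tested members, with a list median of 0.41. Of these, 7 (19.4%) rose (PLXNB3, SEMA3B, EFNA1, PLXNB2, PLXNA3, UNC5B and PLXNB1) and none fell. PLXNB3, a semaphorin receptor, was at 2.87, 6.11 and 3.56 CPM with DMSO and 176, 165 and 106 CPM with RG7112 (log2 fold change 5.10 ± 0.36 SE, adjusted p = 0.000659). SEMA3B, a secreted semaphorin and known p53-responsive gene, was at 45.6, 48.9 and 59.5 CPM with DMSO and 154, 174 and 194 CPM with RG7112 (log2 fold change 1.76 ± 0.17 SE, adjusted p = 0.00195). EFNA1, a GPI-anchored ephrin, was at 92.5, 116 and 114 CPM with DMSO and 209, 212 and 234 CPM with RG7112 (log2 fold change 1.02 ± 0.14 SE, adjusted p = 0.0075). Each of the 3 rose in every RG7112 library, as every rising DEG did, with EFNA1 only just past the fold threshold. EFNA1 was at 0.86 on the log2 scale after a correction for GC content. PLXNB3, SEMA3B and PLXNA3 held and were the 3 that passed without DMSO replicate 1, and EFNA1 was lost without DMSO replicate 1 or RG7112 replicate 3.

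The tetraspanins and mucins had 34 tested members, of which 3 rose (8.82%, against 3.18% of all genes) and 1 fell (2.94%, against 3.01%). CD82, a tetraspanin known as a metastasis suppressor, was at 10.5, 16.4 and 14.8 CPM with DMSO and 195, 191 and 250.4 CPM with RG7112 (log2 fold change 3.92 ± 0.23 SE, adjusted p = 0.000326), and it shared the top of the ranking with SULF2. TSPAN10 was at 29.99, 35.6 and 39.9 CPM with DMSO and 148, 147 and 224 CPM with RG7112 (log2 fold change 2.29 ± 0.23 SE, adjusted p = 0.00197). The fall was of UPK1B (-1.31 ± 0.30, adjusted p = 0.042), a uroplakin, and it was lost in all 6 fits that left out 1 library, as MUC3A (1.61 ± 0.35, adjusted p = 0.0348) was lost in 5. Of 42 tested adhesion and junction genes, 5 (11.9%) rose, namely NECTIN4, CEACAM1, DSC3, CEACAM19 and PCDH1. PCDH9 was the 1 that fell (2.38%), and the list median was 0.19. CEACAM1, a homophilic adhesion receptor, was at 5.74, 6.81 and 7.63 CPM with DMSO and 27.5, 29.8 and 20.2 CPM with RG7112 (log2 fold change 1.93 ± 0.27 SE, adjusted p = 0.00748). DSC3, a desmosomal cadherin, was at 3.51, 4.02 and 5.09 CPM with DMSO and 20.3, 22.9 and 13.3 CPM with RG7112 (log2 fold change 2.15 ± 0.34 SE, adjusted p = 0.0109) and was lost without DMSO replicate 1 or 2 or RG7112 replicate 1. NECTIN4 was at 0.319, 0.175 and 0 CPM with DMSO and 7.76, 7.81 and 4.99 CPM with RG7112, at 1 count or none in each DMSO library, so that its rise was at least 9.16-fold against a floor of 3 counts per library (adjusted p = 0.00602). NECTIN4 and CEACAM1 held, and these were the 2 that passed without DMSO replicate 1 or without DMSO replicate 2.

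Carriers and channels behaved unevenly. Among 72 tested solute carriers 2 rose and 2 fell, shares of 2.78% each against 3.18% and 3.01% over all genes, and all 4 calls held. SLC52A1, a riboflavin transporter, was at 7.98, 9.43 and 10.9 CPM with DMSO and 112, 109 and 149 CPM with RG7112 (log2 fold change 3.70 ± 0.23 SE, adjusted p = 0.000326). SLC12A4, a potassium-chloride cotransporter, was at 59.7, 65.3 and 57.2 CPM with DMSO and 135, 149 and 118 CPM with RG7112 (log2 fold change 1.14 ± 0.15 SE, adjusted p = 0.00646), 0.97 on the log2 scale after the GC correction. The 2 that fell both carry amino acids. SLC3A2, the heavy chain of the LAT1 and xCT exchangers, was at 546, 579 and 503 CPM with DMSO and 165, 161 and 183 CPM with RG7112 (log2 fold change -1.68 ± 0.12 SE, adjusted p = 0.0007). SLC1A5, a glutamine transporter, was at 947, 1028 and 1051 CPM with DMSO and 383, 360.2 and 428 CPM with RG7112 (log2 fold change -1.37 ± 0.12 SE, adjusted p = 0.00147). No member passed among 30 ABC and P-type transporters, 41 G protein-coupled receptors and their regulators and 23 receptor tyrosine kinases and ERBB ligands, whose medians were 0.41, 0.32 and -0.13. Of 37 ion channel genes, KCNC4 (1.37), KCNQ3 (1.46) and ANO9 (1.90) rose, a share of 8.11%. The aquaporin AQP3 (-2.61) fell, a share of 2.70%, and none of these 4 held. The number of rising channels was 0 without any 1 of the DMSO libraries. Of 18 tumour necrosis factor receptors and ligands, 3 (16.7%) rose, with a list median of 0.71. FAS was at 25.8, 16.9 and 18.1 CPM with DMSO and 84.7, 82.5 and 48.5 CPM with RG7112 (log2 fold change 1.83 ± 0.29 SE, adjusted p = 0.0121). TNFSF14, the ligand LIGHT, was at 0.319, 0.873 and 2.29 CPM with DMSO and 12.7, 14.6 and 11.1 CPM with RG7112 (log2 fold change 3.41 ± 0.59 SE, adjusted p = 0.0153). TNFRSF25 (DR3) had a log2 fold change of 1.67 ± 0.30, adjusted p = 0.0182. All 3 were lost without DMSO replicate 2.

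The secreted lists, which also hold membrane proteins such as HPN, held the largest share of risers among the broad categories. Of 193 tested genes in them, 28 (14.5%, against 3.18% of all genes) rose and 2 (1.04%, against 3.01%) fell, 153 had a fold change above 0, and the median log2 fold change was 0.58 against -0.01 for all genes tested. Cytokines and chemokines had 20 tested members, of which 6 (30%) rose (SAA1, CXCL8, IL6, IL32, CXCL1 and LCN2), with a median of 0.95. SAA1, an acute phase apolipoprotein, was at 5.74, 3.49 and 5.85 CPM with DMSO and 35.5, 46.9 and 57.7 CPM with RG7112 (log2 fold change 3.22 ± 0.32 SE, adjusted p = 0.00198). CXCL8 (interleukin 8), which attracts neutrophils, was at 36.4, 29.7 and 32.6 CPM with DMSO and 133, 149.8 and 94.02 CPM with RG7112 (log2 fold change 1.93 ± 0.22 SE, adjusted p = 0.00315). IL6 was at 12.8, 10.1 and 14.2 CPM with DMSO and 27.9, 32.7 and 33.3 CPM with RG7112 (log2 fold change 1.34 ± 0.23 SE, adjusted p = 0.0161). SAA1 and CXCL8 held, and they were the 2 that passed without DMSO replicate 1 and without DMSO replicate 2. IL6 was lost in 4 of the 6 fits that left out 1 library (adjusted p = 0.081 without DMSO replicate 2).

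Complement, coagulation and serpin genes had 30 tested members. Of these, 5 rose (16.7%, against 3.18% of all genes), namely SERPINE2, C1S, C1R, PROCR and C3, and 1 fell (3.33%, against 3.01%). SERPINE2, a thrombin and urokinase inhibitor, was at 386, 405 and 304 CPM with DMSO and 997, 998 and 963 CPM with RG7112 (log2 fold change 1.43 ± 0.14 SE, adjusted p = 0.00197). C1S and C1R encode the proteases that start the classical complement pathway. C1S was at 131, 143 and 154 CPM with DMSO and 375, 317 and 484 CPM with RG7112 (log2 fold change 1.46 ± 0.18 SE, adjusted p = 0.00446), and C1R was at 137, 169 and 109.9 CPM with DMSO and 331, 306 and 451 CPM with RG7112 (log2 fold change 1.39 ± 0.22 SE, adjusted p = 0.0111). In both, the RG7112 libraries lay above the highest DMSO library, as in every rising DEG, with replicate 3 the highest. SERPINE2 and C1S held, C1R was lost without DMSO replicate 1 (adjusted p = 0.0579), and the number called was 2 without DMSO replicate 1 and 3 without each of the 3 RG7112 libraries. FGG, the fibrinogen gamma chain, had a log2 fold change of -1.34 ± 0.32, adjusted p = 0.0451 and was lost in all 6 fits that left out 1 library. Growth factors and TGF-beta family genes had 39 tested members, of which 6 (15.4%) rose (BMP1, IGFBP7, IGFBP3, GRN, PGF and CSF3), with a median of 0.64. BMP1, a procollagen C-proteinase, was at 227, 213 and 201 CPM with DMSO and 480.2, 468 and 552 CPM with RG7112 (log2 fold change 1.23 ± 0.13 SE, adjusted p = 0.00215) and held. IGFBP7 was at 145, 163 and 152 CPM with DMSO and 301, 327 and 311 CPM with RG7112 (log2 fold change 1.03 ± 0.12 SE, adjusted p = 0.00319), and IGFBP3, an insulin-like growth factor carrier known as a p53 target, was at 14.04, 12.4 and 25.2 CPM with DMSO and 55.1, 74.2 and 66.6 CPM with RG7112 (log2 fold change 1.92 ± 0.31 SE, adjusted p = 0.0124). IGFBP7 was lost without DMSO replicate 1, where its fold change was under the threshold, and IGFBP3 was lost without DMSO replicate 1 or 2 or RG7112 replicate 2 (up to adjusted p = 0.0619). The list kept 1 call without DMSO replicate 1, 2 without DMSO replicate 2 and 3 without RG7112 replicate 2.

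Matrix genes had 54 tested members, with a median of 0.58. Of these, 6 rose (11.1%, against 3.18% of all genes), namely COL7A1, COL4A5, THBS3, FBN1, HSPG2 and COL16A1, and 1 fell (1.85%, against 3.01%). COL7A1, the anchoring fibril collagen of the basement membrane, was at 435, 478 and 475 CPM with DMSO and 1484, 1493 and 1432 CPM with RG7112 (log2 fold change 1.67 ± 0.11 SE, adjusted p = 0.000476). COL4A5, a basement membrane collagen chain, was at 19.8, 20.3 and 24.7 CPM with DMSO and 67.9, 53.2 and 52.7 CPM with RG7112 (log2 fold change 1.43 ± 0.21 SE, adjusted p = 0.00851). FBLN1, a matrix glycoprotein that binds fibronectin, went the other way, at 123, 129.8 and 123 CPM with DMSO and 44.3, 35.1 and 49.9 CPM with RG7112 (log2 fold change -1.53 ± 0.17 SE, adjusted p = 0.00319). COL7A1 and FBLN1 held, and COL4A5 was lost without DMSO replicate 1 or 2. Without DMSO replicate 1 COL7A1 was the 1 riser called in the list, and without DMSO replicate 2 there were 2. Of 16 apolipoproteins and plasma carriers 4 (25%) rose (APOL1, LCAT, LCN2 and CP) and none held. LCAT lies beside SLC12A4 on the same strand with overlapping annotation. Of 36 proteases and inhibitors HPN and MMP2 rose (5.56%). HPN (hepsin), a membrane serine protease, was at 0, 0.175 and 0.254 CPM with DMSO and 3.96, 4.88 and 4.44 CPM with RG7112, at 1 count or none in each DMSO library and at least 5.92-fold higher with RG7112 (adjusted p = 0.00833), and it was lost without DMSO replicate 2. MMP2 was lost in 5 of the 6 fits that left out 1 library (up to adjusted p = 0.127), and the list had no riser without DMSO replicate 2.

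**Figure D3:**
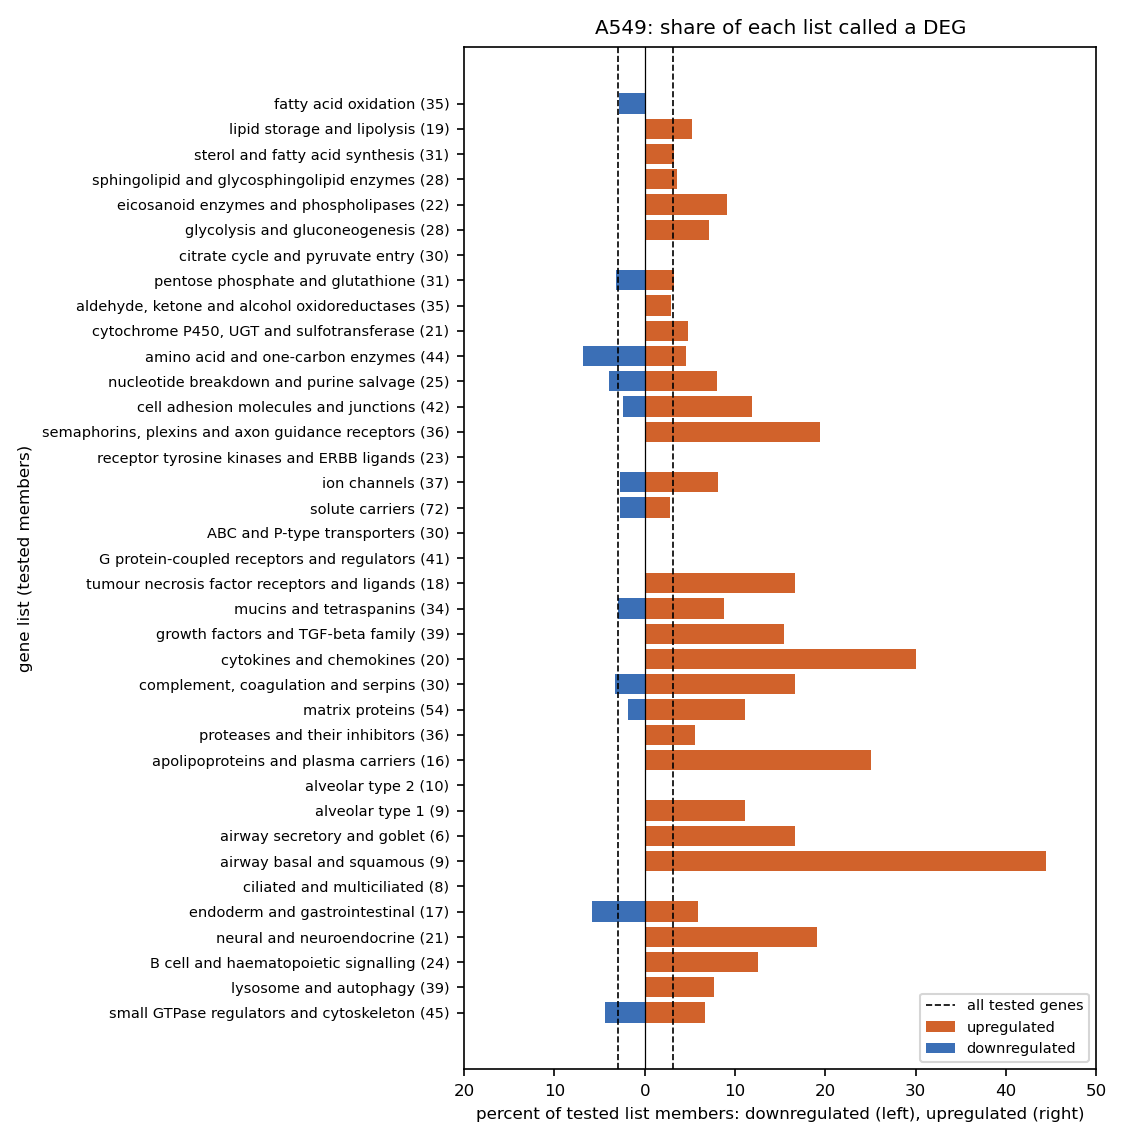
Percent of the tested members of each of 37 gene lists that rose (orange, right) or fell (blue, left) in A549, with the number tested in brackets and dashed lines at the shares of all tested genes, 3.18% and 3.01%. All 6 secreted lists and 5 of the 9 cell surface lists pass the right dashed line, and no metabolic list passes 10% on the right.

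Metabolic enzymes were called at shares near those of all genes. Over all metabolic lists 348 genes were tested, of which 14 (4.02%) rose and 6 (1.72%) fell, against 3.18% and 3.01% of all genes, and the median log2 fold change was 0.04. Of 35 fatty acid oxidation genes none rose and 1 fell, the peroxisomal oxidase ACOX2 (-1.95 ± 0.34, adjusted p = 0.0151), which was lost in 4 of the 6 fits that left out 1 library. Of 30 citrate cycle and pyruvate entry genes none passed, and the median was -0.28. Single enzymes stood out. PRODH, the proline dehydrogenase known as p53-induced gene 6, was at 3.83, 3.32 and 3.82 CPM with DMSO and 28.02, 28.8 and 28.01 CPM with RG7112 (log2 fold change 2.95 ± 0.24 SE, adjusted p = 0.000918). Its 3 RG7112 libraries were within 1 CPM of each other. PHGDH, the first enzyme of serine synthesis, was at 123, 147 and 167 CPM with DMSO and 25.3, 29.8 and 12.5 CPM with RG7112 (log2 fold change -2.71 ± 0.33 SE, adjusted p = 0.00426), and SHMT1, which moves one-carbon units from serine to folate, was at 80.7, 97.8 and 59.5 CPM with DMSO and 31.8, 25.4 and 24.96 CPM with RG7112 (log2 fold change -1.53 ± 0.24 SE, adjusted p = 0.0108). MTHFD2 was the third amino acid or one-carbon enzyme that fell (log2 fold change -1.24), of 44 tested, while PRODH and ASS1 (1.95 ± 0.43, adjusted p = 0.0371) were the 2 that rose. PRODH and PHGDH held. SHMT1 was lost without DMSO replicate 1 or 2 or RG7112 replicate 2 (up to adjusted p = 0.0529), and ASS1 in 5 of the 6 fits.

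Lipid genes gave isolated risers as well, at shares of 3.23% to 9.09% of each list, against 3.18% of all genes. LRP1, the lipoprotein and protease scavenger receptor, was at 64.1, 55.4 and 115 CPM with DMSO and 523, 538 and 836 CPM with RG7112 (log2 fold change 3.02 ± 0.34 SE, adjusted p = 0.00319) and was 1 riser among 19 lipid storage and lipolysis genes. TM7SF2, a sterol C14 reductase, was at 22.3, 36.7 and 19.1 CPM with DMSO and 173, 138 and 222 CPM with RG7112 (log2 fold change 2.76 ± 0.31 SE, adjusted p = 0.00315) and was 1 riser among 31 sterol and fatty acid synthesis genes. PLA2G4C, a cytosolic phospholipase, was at 7.66, 14.1 and 12.98 CPM with DMSO and 46.2, 44.4 and 63.5 CPM with RG7112 (log2 fold change 2.13 ± 0.30 SE, adjusted p = 0.00743). These 3 held, and their DMSO libraries did not reach the RG7112 libraries, which was so in every rising DEG. PLCD3 (1.20 ± 0.19, adjusted p = 0.011) was the other riser among 22 eicosanoid enzymes and phospholipases, and it was lost without DMSO replicate 1. PSAP, the precursor of the lysosomal saposins, was the riser among 28 sphingolipid genes, with a log2 fold change of 1.15 ± 0.25, adjusted p = 0.0372, and passed in 1 of the 6 fits that left out 1 library.

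In nucleotide breakdown and salvage, TYMP and AMPD3 rose among 25 tested genes (8%, against 3.18% of all genes) and held. NUDT1, which removes oxidised nucleotides, was the 1 that fell (4%, against 3.01% of all genes). Its log2 fold change was -1.72 ± 0.34 (adjusted p = 0.0246), and it passed in 1 of the 6 fits that left out 1 library. TYMP, thymidine phosphorylase, was at 17.2, 19.04 and 13.7 CPM with DMSO and 58.1, 89.3 and 73.5 CPM with RG7112 (log2 fold change 2.13 ± 0.24 SE, adjusted p = 0.00319). AMPD3, an AMP deaminase, was at 41.8, 44.01 and 34.9 CPM with DMSO and 120.5, 114 and 84.6 CPM with RG7112 (log2 fold change 1.40 ± 0.20 SE, adjusted p = 0.00779). Neither gene had overlapping groups, as no DEG did. Of 28 glycolysis and gluconeogenesis genes, the aldolase ALDOC (1.07 ± 0.17, adjusted p = 0.0106) and PFKFB4 (1.75 ± 0.32, adjusted p = 0.019) rose, a share of 7.14%. Neither held, ALDOC being lost without DMSO replicate 2 and at 0.95 after the GC correction. Of 31 pentose phosphate and glutathione genes, GPX3 rose (2.13 ± 0.43, adjusted p = 0.0273) and GCLC, the catalytic subunit of glutathione synthesis, fell (-1.14 ± 0.24, adjusted p = 0.0298). These are shares of 3.23% each, near those of all genes. GPX3 passed in none and GCLC in 1 of the 6 fits that left out 1 library. ALDH3A1, an aldehyde dehydrogenase, was the riser among 35 oxidoreductases of aldehydes, ketones and alcohols (2.86%). It was at 3107, 3551 and 3437 CPM with DMSO and 6587, 6795 and 11053 CPM with RG7112 (log2 fold change 1.28 ± 0.22 SE, adjusted p = 0.0156), with replicate 3 the highest of the RG7112 libraries. It was lost without DMSO replicate 1 or 2 or RG7112 replicate 3 (up to adjusted p = 0.0779). CYP3A5, a drug-metabolising cytochrome, was the riser among 21 genes of its list (4.76%). It was at 7.98, 5.94 and 6.87 CPM with DMSO and 23.1, 27.8 and 16.6 CPM with RG7112 (log2 fold change 1.70 ± 0.30 SE, adjusted p = 0.0156) and was lost in 4 of the 6 fits.

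Genes of the mitochondrial chromosome rose together, and they include 4 of the 5 risers with the highest CPM. This group was chosen after its values were seen. The mitochondrial chromosome carries 13 protein-coding genes, all subunits of the respiratory chain or ATP synthase, and its transcripts took 2.12% to 2.85% of the counts in the DMSO libraries and 5.48% to 6.95% in the RG7112 libraries. In H1792 the share was 0.766% to 1.08% with DMSO and 0.897% to 1.29% with RG7112. In A549, 12 of the 13 genes rose, against 3.18% of all genes tested, and the median log2 fold change was 1.49. MT-ND1, a complex I subunit, was at 1849, 1604 and 1519 CPM with DMSO and 5541, 4998 and 5948 CPM with RG7112 (log2 fold change 1.73 ± 0.14 SE, adjusted p = 0.000881). MT-CO1, the core of cytochrome oxidase, was at 11046, 9539 and 6584 CPM with DMSO and 27849, 26689 and 20282 CPM with RG7112 (log2 fold change 1.46 ± 0.23 SE, adjusted p = 0.0108), and MT-CO3 was at 6003, 5209 and 5270.1 CPM with DMSO and 13201, 12299.9 and 13961 CPM with RG7112 (log2 fold change 1.26 ± 0.13 SE, adjusted p = 0.00199). No RG7112 library was below a DMSO library in these genes, nor in any other rising DEG. MT-CO2 was at 2369, 1838 and 3708 CPM with DMSO and 6437, 5427 and 7894 CPM with RG7112 (log2 fold change 1.32 ± 0.28 SE, adjusted p = 0.0326) and passed in 1 of the 6 fits that left out 1 library. The exception was MT-ND3, at 96.04, 36.3 and 376 CPM with DMSO and 236, 153 and 266 CPM with RG7112 (log2 fold change 0.37 ± 0.74 SE, adjusted p = 0.817), where DMSO replicate 3 was higher than all RG7112 libraries. MT-ND1, MT-ND2, MT-ND4, MT-ND6, MT-CYB and MT-CO3 held. The number called was 7 without DMSO replicate 2 and 7 without RG7112 replicate 1, and MT-CO1 was lost without DMSO replicate 2 (adjusted p = 0.0534). With these genes left out of the table, 650 DEGs were called, all of them among the 665.

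**Figure D4:**
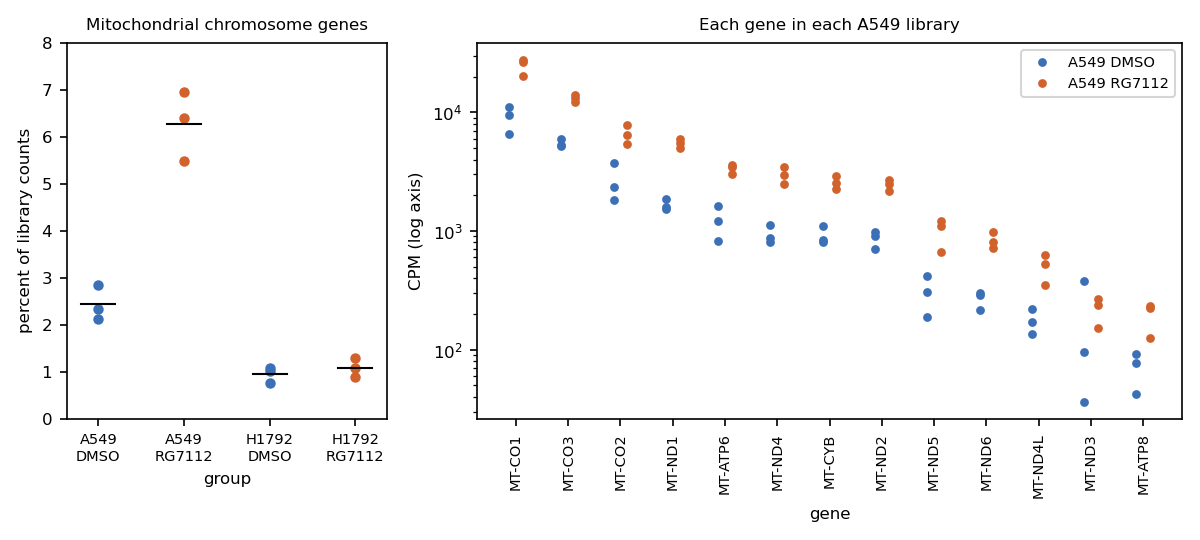
Left, the percent of each library's counts from mitochondrial chromosome genes in the 4 groups (points, 3 libraries each; bar, mean), from 2.12% to 2.85% in A549 with DMSO to 5.48% to 6.95% with RG7112. Right, the CPM of the 13 genes in each A549 library on a log axis, in which MT-ND3 is the gene whose groups overlap.

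Most lineage genes tested were not called. Over all lineage lists 102 genes were tested, of which 14 (13.7%, against 3.18% of all genes) rose and 1 (0.98%, against 3.01%) fell, with a median log2 fold change of 0.20. Of 9 airway basal and squamous genes 4 (44.4%) rose, with a median of 1.17. ITGB4, the hemidesmosome integrin, was at 207, 244 and 192 CPM with DMSO and 453, 433 and 562 CPM with RG7112 (log2 fold change 1.17 ± 0.16 SE, adjusted p = 0.00646), 0.92 after the GC correction. TRIM29 was at 6.06, 9.26 and 8.14 CPM with DMSO and 20.4, 21.96 and 31.1 CPM with RG7112 (log2 fold change 1.63 ± 0.29 SE, adjusted p = 0.0178). KRT15 (1.27) and DSC3 were the other two. TRIM29 was lost in 4 of the 6 fits that left out 1 library. ITGB4 held and was the 1 call without DMSO replicate 1 or without DMSO replicate 2. KRT19, a simple epithelial keratin, was at 1082, 1238 and 1449 CPM with DMSO and 2694, 2826 and 3541 CPM with RG7112 (log2 fold change 1.27 ± 0.17 SE, adjusted p = 0.00602) and held, the 1 riser among 17 endoderm and gastrointestinal genes, of which FGG fell. Of 10 alveolar type 2 genes and 8 ciliated cell genes none passed. Of 9 alveolar type 1 genes 1 rose, SEMA3B, and of 6 airway secretory genes 1 rose, LCN2 (1.53 ± 0.35, adjusted p = 0.0412), which passed in 1 of the 6 fits that left out 1 library.

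Neural genes had 21 tested members, of which NEFL, DPYSL4, PNMA8A and CRMP1 rose, with a median of 0.88. NEFL, the neurofilament light chain, was at 5.74, 5.24 and 4.83 CPM with DMSO and 30.9, 36.1 and 23.6 CPM with RG7112 (log2 fold change 2.51 ± 0.27 SE, adjusted p = 0.00261). DPYSL4, a collapsin response mediator known as a p53 target, was at 7.66, 6.46 and 5.34 CPM with DMSO and 31.7, 31.7 and 54.1 CPM with RG7112 (log2 fold change 2.59 ± 0.32 SE, adjusted p = 0.00427). Both held. PNMA8A was at 0 in all DMSO libraries and at 4.91, 6.83 and 5.27 CPM with RG7112, at least 7.58-fold higher (adjusted p = 0.00896), and was lost without RG7112 replicate 1 (adjusted p = 0.0503) and with all 12 samples in one fit. Of 24 B cell and haematopoietic signalling genes 3 (12.5%, against 3.18% of all genes) rose, among them BLNK and INPP5D. BLNK, the adaptor that links the B cell receptor to its kinases, was at 0, 0.175 and 0 CPM with DMSO and 11.9, 23.4 and 19.97 CPM with RG7112, with 1 count in all DMSO libraries together and a rise of at least 24.6-fold (adjusted p = 0.00183). INPP5D (SHIP1) was at 1.595, 1.397 and 0.509 CPM with DMSO and 12.8, 16.6 and 19.4 CPM with RG7112 (log2 fold change 3.77 ± 0.46 SE, adjusted p = 0.00436). It has the same counts as a second identifier, so that the reads cannot be assigned to either. BLNK and INPP5D held. Among the leukocyte markers, PTPRC, MS4A1 and CD3E were at 1 count or none in every library, whereas CD68 was at 10.9 to 35.7 CPM with DMSO and 45.4 to 106 CPM with RG7112 and CD14 at 19.04 to 24.3 CPM and 13.7 to 18.03 CPM, neither called a DEG. The part of these levels in the result was not tested.

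Lysosome and autophagy genes had 39 tested members, of which GAA, ATG2A and ATG16L2 rose (7.69%, against 3.18% of all genes) and none fell, with a median of 0.70. GAA, the lysosomal alpha-glucosidase, was at 354, 328 and 345 CPM with DMSO and 685, 688 and 883 CPM with RG7112 (log2 fold change 1.14 ± 0.14 SE, adjusted p = 0.00468); it held, and it was at 0.88 after the GC correction. Of 45 regulators of small GTPases and the cytoskeleton, MYO7A (1.09), ARHGEF4 (1.74) and RND3 (1.10) rose (6.67%, against 3.18% of all genes), none of them held, and 2 fell (4.44%, against 3.01%) and held. RAP1GAP, which switches off the GTPase Rap1, was at 182, 209.8 and 167 CPM with DMSO and 57.3, 39.05 and 41.9 CPM with RG7112 (log2 fold change -2.01 ± 0.20 SE, adjusted p = 0.00197). ARHGEF39 was at 29.4, 24.5 and 30.8 CPM with DMSO and 3.32, 2.44 and 1.94 CPM with RG7112 (log2 fold change -3.40 ± 0.31 SE, adjusted p = 0.00147). Both falls left every RG7112 library below every DMSO library, as every falling DEG did. RAP1GAP was not called with all 12 samples in one fit (adjusted p = 0.103).

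The downregulated DEGs were led by genes of DNA replication and mitosis. Of 39 tested cell cycle genes 30 fell (76.9%, against 3.01% of all genes tested) and none rose, all 39 had a fold change below 0, and the median log2 fold change was -3.30. Without DMSO replicate 2 there were 23 called. MKI67, the proliferation antigen Ki-67, was at 497, 459.5 and 329 CPM with DMSO and 20.6, 19.04 and 23.3 CPM with RG7112 (log2 fold change -4.35 ± 0.21 SE, adjusted p = 0.000283). RRM2, the regulated subunit of ribonucleotide reductase, was at 202, 217 and 140.4 CPM with DMSO and 3.64, 4.39 and 3.61 CPM with RG7112 (log2 fold change -5.60 ± 0.26 SE, adjusted p = 0.000283). ZWINT, a kinetochore protein, was at 172, 179.6 and 170.2 CPM with DMSO and 16.5, 17.1 and 14.98 CPM with RG7112 (log2 fold change -3.43 ± 0.15 SE, adjusted p = 0.000283). KIF23, a kinesin of the central spindle, was at 149, 134 and 137 CPM with DMSO and 15.8, 13.7 and 13.3 CPM with RG7112 (log2 fold change -3.28 ± 0.17 SE, adjusted p = 0.000283). MCM5, a subunit of the replicative helicase, was at 352, 391 and 402 CPM with DMSO and 38.3, 32.7 and 46.9 CPM with RG7112 (log2 fold change -3.27 ± 0.17 SE, adjusted p = 0.000283), and MCM10, which helps to activate it at origins, was at 86.5, 84.2 and 68.2 CPM with DMSO and 2.85, 1.95 and 1.66 CPM with RG7112 (log2 fold change -5.13 ± 0.28 SE, adjusted p = 0.000326). All 6 held. MKI67 and RRM2 were set as markers. ZWINT, KIF23, MCM5 and MCM10 were named for a small p and no overlap, so the gap between their groups follows from that choice. PIMREG (-4.28) and an identifier without a name in the annotation (ENSG00000204197, -5.13) were also among the 8 falls with the smallest p.

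The deepest falls ended at or below the floor of 3 counts. FAM83D, a spindle protein, was at 45.3, 35.5 and 25.7 CPM with DMSO and at 0 in all RG7112 libraries, at least 38.4-fold lower (adjusted p = 0.00197). CDK1, the kinase that drives entry into mitosis, was at 18.5, 22.9 and 16.3 CPM with DMSO and 0.475, 0.488 and 0 CPM with RG7112, at least 20.8-fold lower (adjusted p = 0.0024). NUF2, a kinetochore component, was at 10.2, 7.34 and 7.63 CPM with DMSO and 0.158, 0 and 0 CPM with RG7112, at least 9.09-fold lower, and FAM72C was at 10.8, 9.08 and 9.41 CPM with DMSO and 0, 0 and 0.277 CPM with RG7112, at least 10.6-fold lower. These bounds are limited by the depth of the RG7112 libraries. FAM83D, CDK1, NUF2 and FAM72C passed the filter on low counts only through DMSO, so the filter fixed their direction. PIF1, a DNA helicase, was at 14.7, 39.8 and 42.2 CPM with DMSO and 0.633, 0.976 and 0.277 CPM with RG7112 (log2 fold change -5.71 ± 0.61 SE, adjusted p = 0.00271). Among highly expressed genes, the tubulin TUBA1B was at 6743, 6760.0 and 7234 CPM with DMSO and 1893, 1821 and 2204 CPM with RG7112 (log2 fold change -1.81 ± 0.13 SE, adjusted p = 0.000661), and PTMA, a small acidic chromatin protein, was at 2818, 2947 and 3595 CPM with DMSO and 1282, 1308 and 1802 CPM with RG7112 (log2 fold change -1.09 ± 0.18 SE, adjusted p = 0.013). TUBA1C was at 2605, 2619 and 3329 CPM with DMSO and 1158, 1166 and 1546 CPM with RG7112 (log2 fold change -1.14 ± 0.17 SE, adjusted p = 0.00979), and RAN, the GTPase of nuclear transport and spindle assembly, was at 1160.5, 1119 and 1507 CPM with DMSO and 598, 617 and 535 CPM with RG7112 (log2 fold change -1.11 ± 0.15 SE, adjusted p = 0.00703). TUBA1B held. PTMA was lost in 4 of the 6 fits that left out 1 library (up to adjusted p = 0.0656), TUBA1C without RG7112 replicate 1 or 2, and RAN without DMSO replicate 3. Alpha-tubulin genes are near-identical in sequence, so counts of TUBA1B and TUBA1C may share reads.

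Promoters of mitotic genes often carry a CHR element (TTTGAA or TTCGAA), which the DREAM complex binds, together with a CCAAT box, and promoters of p53 targets may carry p53 half-sites. RefSeq promoters (GRCh38.p14, 250 bases before to 50 after the start, the first listed for each symbol) were found for 224 rising and 232 falling DEGs, 7855 tested genes and 27305 symbols in all. Both strands were searched, and motifs were allowed to overlap. Among falling DEGs, 29.3% of promoters held a CHR and 54.7% a CCAAT, and 21.1% held both. The shares among rising DEGs were 7.14%, 29.02% and 1.34%, and among all tested genes 10.3%, 35.8% and 4.23%. Over all 27305 promoters they were 16.6%, 35.7% and 6.58%. An E2F core (TTCCCGC or TTGGCGC) was in 28.9% of falling, 9.38% of rising and 15.0% of tested promoters, and in 9.33% of all. A p53 half-site was in 9.38% of rising, 6.03% of falling and 5.31% of tested promoters, and in 6.54% of all. These are letter matches, given without a test. The 150 bases before the start are shown for 3 falling genes described above and for BLNK, all 5′ to 3′ on the gene's strand. Capitals mark CCAAT and CHR matches on either strand in the falling genes, and the p53 half-site in BLNK. These genes were picked because they hold the matches in this stretch, so they do not represent the other DEGs.
MKI67 (chr10:128126424-128126573, minus strand): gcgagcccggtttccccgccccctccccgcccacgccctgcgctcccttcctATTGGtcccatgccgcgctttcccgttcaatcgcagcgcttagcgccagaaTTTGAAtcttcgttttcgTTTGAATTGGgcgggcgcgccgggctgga
ZWINT (chr10:56361260-56361409, minus strand): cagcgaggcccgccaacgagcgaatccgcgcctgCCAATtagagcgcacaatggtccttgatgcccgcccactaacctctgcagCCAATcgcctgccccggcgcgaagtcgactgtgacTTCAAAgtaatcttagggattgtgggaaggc
KIF23 (chr15:69414199-69414348, plus strand): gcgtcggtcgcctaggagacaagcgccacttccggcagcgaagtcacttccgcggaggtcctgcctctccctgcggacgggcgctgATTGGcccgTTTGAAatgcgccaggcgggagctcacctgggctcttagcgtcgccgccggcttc
BLNK (chr10:96271570-96271719, minus strand): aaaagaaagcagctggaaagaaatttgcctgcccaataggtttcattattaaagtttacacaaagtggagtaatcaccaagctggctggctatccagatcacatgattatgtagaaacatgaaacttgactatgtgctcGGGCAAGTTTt
In MKI67 the second CHR overlaps a CCAAT on the other strand, and in KIF23 the CHR lies within 10 bases of the CCAAT.

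Some risers were close to silent in DMSO. In 14 rising DEGs no DMSO library had more than 3 counts, and in 19 falling DEGs no RG7112 library did. These genes passed the filter on low counts only through the group where they are high, so the filter fixed their direction. The share of such genes among all genes tested was not counted. BLNK, NECTIN4, HPN and PNMA8A also count among the risers of their lists. Besides BLNK, NECTIN4, HPN and PNMA8A, SUGCT, a mitochondrial CoA transferase, was at 0, 0 and 0.763 CPM with DMSO and 10.3, 10.7 and 14.1 CPM with RG7112, at least 15.7-fold higher (adjusted p = 0.0132), and was lost without DMSO replicate 1. The NMDA receptor subunit GRIN2C was at 0, 0.175 and 0.763 CPM with DMSO and 13.6, 8.298 and 10.3 CPM with RG7112, at least 14.3-fold higher, and the folate receptor FOLR3 was at 0.319, 0.349 and 0 CPM with DMSO and 9.02, 8.298 and 4.99 CPM with RG7112, at least 9.94-fold higher. GRIN2C was lost without DMSO replicate 2 and FOLR3 held, and both are named after their values were seen. Each of these genes stayed under 30 CPM with RG7112.

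Rising and falling DEGs differed in base composition and starting level. The median GC content of their transcripts was 56.8% in rising, 47.1% in falling and 49.3% in all tested genes, and the median transcript length was 3685, 3079 and 3726 bases. The median level with DMSO was 18.1 CPM in rising, 42.4 CPM in falling and 20.5 CPM in all tested genes. With a GC correction there were 341 rising and 354 falling DEGs, and 582 of the 665 were called. The part of GC content in the results was not tested beyond that correction.

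H1792 cells, whose p53 is mutant, were given the same treatments. The difference between the responses of the lines was tested as an interaction over all 12 samples, and 2539 of 11666 genes (21.8%) differed, 10.4% with a higher and 11.4% with a lower value in A549. Without DMSO replicate 1 of A549 there were 1584. Of the 342 rising A549 DEGs, 216 differed with a larger response in A549, and of the 323 falling ones 246 did, and none differed the other way. The A549 contrast that chose these genes enters the interaction, so these shares are a description. By its own fit H1792 called 10.3% of 9914 genes up and 4.34% down. Of the 228 rising A549 DEGs tested in H1792, 6 rose and 7 fell there, with a median log2 fold change of -0.19. Of the 303 falling ones, 24 rose and 6 fell, with a median of 0.05. The other 114 rising DEGs were too low to be tested in H1792, where their median level with DMSO was 0.485 CPM.

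Single genes show the contrast. The A549 response exceeded the H1792 response by 3.90 ± 0.32 SE, adjusted p = 3.15e-05 in CD82 on the log2 scale, by 2.30 ± 0.13 SE, adjusted p = 2.02e-06 in COL7A1 and by 6.54 ± 0.55 SE, adjusted p = 4.29e-05 in PLXNB3. Of the 14 metabolic risers, 6 differed between the lines (LRP1, TM7SF2, PLA2G4C, PLCD3, ALDOC and TYMP) and 8 did not pass. TYMP gave 3.49 ± 0.83 SE, adjusted p = 0.0148. For RRM2 the difference was -6.66 ± 0.29 SE, adjusted p = 3.65e-07. For GPX3 and AMPD3 the difference did not pass, which does not show that the lines acted alike: their log2 fold changes were 2.13 and 1.40 in A549 and 1.95 and 1.26 in H1792. The differences were 0.26 ± 1.27 SE, adjusted p = 0.921 for GPX3 and 0.22 ± 0.28 SE, adjusted p = 0.617 for AMPD3. SULF2, SLC52A1, LYNX1, CRYAB and RGMA, all among the 12 leading A549 risers, were under 1 CPM in H1792 with DMSO and were not tested there, so that no H1792 response was measured. The interaction passed for CRYAB and RGMA (adjusted p = 0.045 and 0.00401) and not for SULF2, SLC52A1 and LYNX1 (adjusted p = 0.0776, 0.242 and 0.197). For GCLC the lines went in opposite directions, -1.14 in A549 and 1.10 in H1792 (difference -2.16 ± 0.29 SE, adjusted p = 0.000866).

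**Figure D5:**
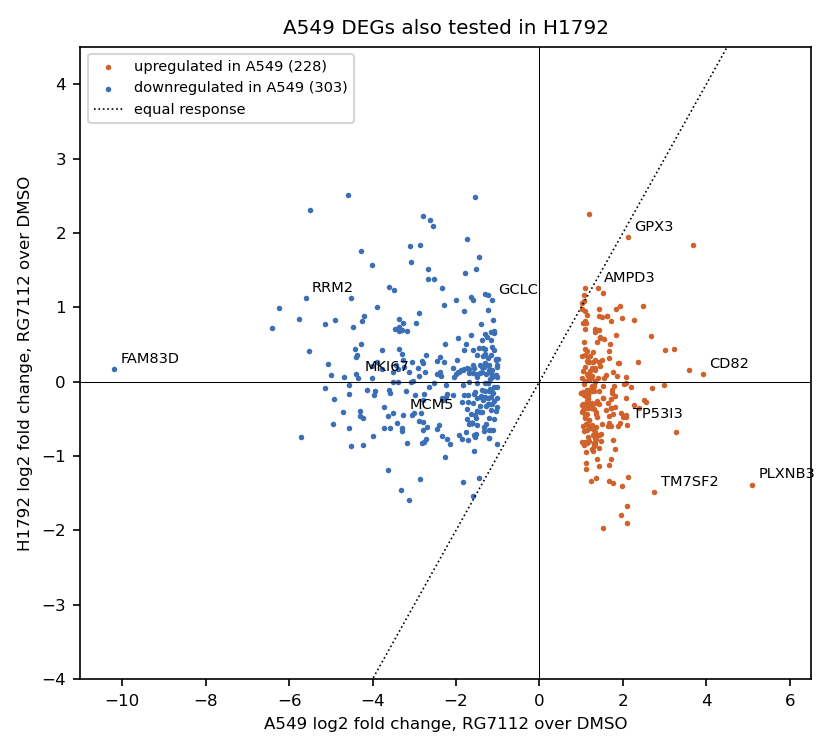
Log2 fold change in H1792 against that in A549 for the 228 rising (orange) and 303 falling (blue) A549 DEGs that were tested in both lines, with a dotted line of equal response. The H1792 values scatter about 0, and GPX3 and AMPD3 are among the few near the dotted line.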

How the data were processed

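The series holds 12 RNA-seq libraries, 3 for each pairing of cell line (A549, H1792) and treatment (DMSO, RG7112). Per the study's methods and the labels, poly-A RNA was selected and kallisto 0.45.0 estimated transcript abundances on Ensembl GRCh38 release 95, which were added up to genes. The labels give reads of 38 nt and the study's methods another length and instrument. The authors deposited estimated counts (expected counts) per gene as whole numbers without normalization. The table held 20595 genes, of which 18011 identifiers were found in GENCODE v29. Identifiers outside it carry no symbol here, and 553 genes with at least 60 counts shared identical counts with another gene. Among these were 13 rising and 15 falling DEGs, so the DEG counts may hold the same reads more than once. Whether the counting used strand is not given in the sources used here.

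Samples were grouped by the labels' cell line and treatment. In R 4.3.3 with edgeR 4.0.16, genes were filtered with filterByExpr (minimum count 10, minimum total 15), scaled by TMM and tested by a quasi-likelihood model over the 6 A549 libraries (common biological coefficient of variation 0.345). P-values were adjusted by Benjamini-Hochberg over all genes tested, and a gene was called a DEG below 0.05 with a log2 fold change beyond 1 in either direction. The interaction with cell line used all 12 libraries and an adjusted p under 0.05. Folds of genes with at most 3 counts in every library of a group are lower bounds against 3 counts per library, averaged over the group (0.748 CPM for DMSO and 0.924 CPM for RG7112); they cover counting error only, and reads without molecular identifiers are not independent molecules. Replicate pairs differed by 5.38 to 25.6 times counting noise (chi-square per degree of freedom), so none was counted as 1 library.

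The members and the gene lists were chosen with earlier results of these data known, and lists are described by counts and medians without a test. The rule for named genes took 5 marker genes, the 12 rising and 8 falling DEGs with the smallest p and no overlap, up to 3 rising and 2 falling DEGs per metabolic, membrane, secreted, lineage or other list, the 5 largest folds each way and the 5 highest levels each way. All other named genes, further called members of the lists included, were picked after their values were seen. Alternatives were DESeq2 1.42.0, limma 3.58.1 (limma-trend), RLE size factors, library size only, other filters and thresholds, GC correction (loess, span 0.5), the replicate block, all 12 samples, and leaving out each library. Another 3 were chosen after seeing the data, namely omitting mitochondrial genes, omitting replicate 3 of both treatments and restricting the table to GENCODE v29. A planned comparison of protein hydropathy was not run, since no protein sequences were used here. Some items are not reported here.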

Additional observations from a re-analysis of the deposited data

Results flagged for a closer look

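The 5 marker genes and the 20 DEGs with the smallest p and no overlap make 22 genes, since 3 are in both sets. Of these, 19 responded differently in A549 and H1792 by the interaction test over all 12 samples (edgeR, adjusted p under 0.05). Over all genes in that test 21.8% differed. Among the A549 DEGs, 63.2% of the rising and 76.2% of the falling ones differed with a larger response in A549. The A549 response minus the H1792 response, on the log2 scale, was 3.40 for CDKN1A, 3.12 for MDM2, 2.74 for TP53I3, 3.90 for CD82, 2.17 for FAT1, 5.14 for CRYAB, 2.30 for COL7A1, 6.54 for PLXNB3, 2.91 for ZNF385A, 2.37 for ACTA2 and 5.46 for RGMA. It was -4.32 for MKI67, -6.66 for RRM2, -3.57 for ZWINT, -4.97 for ENSG00000204197, -3.57 for KIF23, -4.71 for PIMREG, -2.75 for MCM5 and -5.82 for MCM10. The A549 response that selected these genes enters the difference. CRYAB and RGMA were too low in H1792 to be tested there (means of 0.235 and 0.936 CPM with DMSO), so the H1792 response in their differences was not measured and the sizes depend on how near-zero counts are handled. Groups of 3 libraries were too small for a test of single outlying libraries.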

How the results depend on the processing

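The 665 DEGs became 608 to 908 under the other normalizations, filters, tests, fits and annotation, and 279 at an adjusted p under 0.01 (135 rising, 144 falling); 900 genes had an adjusted p under 0.05 at any fold. Leaving out 1 library gave 310 to 526 DEGs, 149 to 299 of them rising and 159 to 256 falling; the differences between A549 and H1792 then numbered 1584 (without DMSO replicate 1) to 2978, against 2539. The cause was not tested. DESeq2 called 908 DEGs (471 rising, 437 falling), 663 of them shared with the 665. With library size only, the median of all genes moved to -0.08, with 298 rising and 345 falling. No log2 fold change of the 109 genes the naming rule took changed sign under any alternative that tested the gene. Of the 109, 53 passed in every refit of all genes in which they were tested. Some refits did not test them all: with at least 10 counts in every sample, 88 of the 109 were tested.

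The replicate number was not taken to pair samples, and the labels name no shared batch. Deviations from the group means correlated at 0.145, 0.067 and 0.293 for the same numbers and at -0.232 to 0.144 for different numbers. Replicate 3 of each treatment correlated positively only with replicate 3 of the other. With the replicate block there were 612 DEGs (333 rising, 279 falling), 535 of them shared with the 665, and 2357 differences between the lines. Of the 109 named genes, 13 were not called with the block (adjusted p = 0.0509 to 0.0806): CDKN1A, PSAP, ASS1, KCNC4, KCNQ3, ANO9, MUC3A, UPK1B, FGG, LCAT, LCN2, PNMA8A and RND3.

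At 2011916 to 6218825 counts per library, 3 counts were worth up to 1.46 CPM, and differences below that level were not detectable.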

Other observations

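The following DEGs lie outside the gene lists. They were picked after their values were seen, and all held when 1 library was left out. SRSF3, a splicing factor, was at 353, 355 and 425 CPM with DMSO and 178, 188 and 144 CPM with RG7112 (log2 fold change -1.15 ± 0.15 SE, adjusted p = 0.00612). NOLC1, a nucleolar chaperone, was at 561, 524 and 420.0 CPM with DMSO and 229, 207 and 193 CPM with RG7112 (log2 fold change -1.26 ± 0.15 SE, adjusted p = 0.00415). DKC1, the pseudouridine synthase of telomerase and small nucleolar RNPs, was at 92.5, 79.8 and 80.4 CPM with DMSO and 35.3, 24.9 and 29.1 CPM with RG7112 (log2 fold change -1.49 ± 0.19 SE, adjusted p = 0.00554). In each of them every RG7112 library lay below every DMSO library, which was so in every falling DEG. SOD2, the mitochondrial superoxide dismutase, was at 337, 315 and 327 CPM with DMSO and 1543, 1494 and 1088 CPM with RG7112 (log2 fold change 2.08 ± 0.16 SE, adjusted p = 0.000881). BCL2L1, which encodes the anti-apoptotic protein BCL-XL, was at 55.8, 43.1 and 27.2 CPM with DMSO and 200.3, 153 and 248 CPM with RG7112 (log2 fold change 2.26 ± 0.30 SE, adjusted p = 0.00643), beside the rise of the pro-apoptotic BBC3. TRIM22, an interferon-inducible ligase known as a p53 target, was at 3.83, 5.94 and 3.82 CPM with DMSO and 41.6, 39.5 and 20.5 CPM with RG7112 (log2 fold change 2.88 ± 0.38 SE, adjusted p = 0.0057).

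Replicate 3 of both treatments differed from replicates 1 and 2 in 285 of 10739 genes (edgeR, adjusted p under 0.05, treatment in the model), 6 of them rising and 3 falling DEGs. CCND1, which encodes cyclin D1, was at 123, 107 and 6.11 CPM with DMSO and 94.7, 76.6 and 5.82 CPM with RG7112. STAT3 was at 191, 174 and 34.3 CPM with DMSO and 178, 158 and 48.3 CPM with RG7112, and POLR1A was at 67.3, 75.98 and 1.02 CPM with DMSO and 9.18, 8.79 and 0 CPM with RG7112. AGRN, which encodes agrin, was at 49.5, 54.7 and 143 CPM with DMSO and 122, 103 and 425 CPM with RG7112. In the first 3 replicate 3 was the lowest of each group, and in AGRN the highest.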
